A study of Homo sapiens with 2 samples.

Results

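The ErbB receptors and their ligands were described in HCT116, an established line from a human colorectal carcinoma. The genes were the 4 receptors EGFR, ERBB2, ERBB3 and ERBB4 and the 6 ligands AREG, EREG, HBEGF, TGFA, BTC and EGF, taken by gene symbol. Of these 10 genes, 9 had a probe set that the platform annotation ties to 1 symbol, with 34 probe sets among them, out of 18132 such genes and 44988 such probe sets on the array. AREG, the ligand amphiregulin, had none under that rule and was not analysed here.

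Total RNA of 2 cultures was hybridised to Affymetrix PrimeView arrays. The control culture carried a scrambled hairpin (Scr), and the knockdown culture carried a short hairpin RNA against SUN2 (shSUN2-1). SUN2 sits in the inner nuclear membrane as part of the LINC complex, which joins the nucleus to the cytoskeleton. Both cultures were grown in DMEM with fetal bovine serum, so serum factors were present in both. A single hairpin and 1 array per group were used. No value below therefore has a replicate, an SD between cultures or a test, and the hairpin cannot be told apart from its target or from the culture.

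ErbB receptors are tyrosine kinases of the cell surface that signal as pairs. EGF, TGF-alpha and amphiregulin bind EGFR, whereas betacellulin, HB-EGF and epiregulin bind both EGFR and ERBB4. ERBB2 binds none of these ligands and serves as a partner of the others, and ERBB3 binds neuregulins but has a weak kinase of its own. The ligands are made as membrane-anchored precursors and are released by proteases such as ADAM17. The pathway supports renewal of the intestinal epithelium, and EGFR is a drug target in colorectal cancer, where high epiregulin and amphiregulin transcripts mark tumours more likely to respond to EGFR antibodies.

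Upstream sequences are given for the 3 genes with the largest differences past the filter, EREG and TGFA (higher in the knockdown) and ERBB2 (lower). They show what lies before the listed starts of each gene. They are from RefSeq on GRCh38.p14 and cover the 250 bases before a transcription start, 5′ to 3′ on the gene's strand. The set of upstream sequences used here held 9 of the 10 genes and lacked ERBB3. EREG lies at chr4:74364895-74365144 on the plus strand. ERBB2 lies at chr17:39687844-39688093 on the plus strand. TGFA has 2 listed starts on the minus strand, at chr2:70553827-70554076 and chr2:70553447-70553696. Capitals mark matches on either strand to TATAAA (the TATA box), GGGCGG (the GC box) and TGANTCA (the AP-1 motif), and no match overlapped another in these 4 windows.
EREG: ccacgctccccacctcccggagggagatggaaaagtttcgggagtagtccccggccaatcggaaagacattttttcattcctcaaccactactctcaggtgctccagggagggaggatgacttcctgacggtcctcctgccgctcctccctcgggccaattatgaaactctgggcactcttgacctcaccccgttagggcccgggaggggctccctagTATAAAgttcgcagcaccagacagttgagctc
TGFA first start: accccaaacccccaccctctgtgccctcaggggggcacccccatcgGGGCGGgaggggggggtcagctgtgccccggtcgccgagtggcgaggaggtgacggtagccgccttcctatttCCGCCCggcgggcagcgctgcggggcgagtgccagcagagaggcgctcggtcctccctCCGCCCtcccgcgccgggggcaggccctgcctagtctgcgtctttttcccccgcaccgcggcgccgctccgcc
TGFA second start: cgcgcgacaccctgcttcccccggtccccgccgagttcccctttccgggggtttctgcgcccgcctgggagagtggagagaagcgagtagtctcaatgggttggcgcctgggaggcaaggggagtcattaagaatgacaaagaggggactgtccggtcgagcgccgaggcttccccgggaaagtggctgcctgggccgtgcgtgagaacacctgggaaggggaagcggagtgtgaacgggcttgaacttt
ERBB2: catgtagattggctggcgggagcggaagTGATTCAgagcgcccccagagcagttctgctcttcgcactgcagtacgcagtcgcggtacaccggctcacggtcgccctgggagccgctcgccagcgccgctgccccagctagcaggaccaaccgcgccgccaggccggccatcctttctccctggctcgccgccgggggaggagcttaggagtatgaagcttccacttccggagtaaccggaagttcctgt
The EREG window held 1 TATA match, 32 to 27 bases before the start, where such boxes usually lie, and no match to the other motifs. TATAAA was found anywhere, on either strand, in 10.7% of all 35116 windows of this length. Near the start, in a stretch that includes the EREG position, it was found on the gene's strand in fewer. These were 2.13% of windows of plus strand genes and 2.37% of those of minus strand genes. The first TGFA window held 3 GC box matches, a motif found in 42.6% of all windows, and the second TGFA window held no match. The window before the only listed ERBB2 start held 1 AP-1 match, 222 to 216 bases before that start, and 6.57% of all windows held that motif. A match describes letters only, and no binding was measured here. Which start these cultures use was not measured either, so a window need not be the promoter in use.

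The deposited values were linear probe set intensities that still contained background. The array carries 23 background controls, probe sets without a human target, that ran from 31.2 to 1425 on the control array with rising GC content. Of these controls 20 were lower on the knockdown array. Differences are given as knockdown minus control on the log2(intensity + 16) scale, which understates the change of dim probe sets. A gene was represented by its brightest probe set and was kept where the mean of both arrays reached the median of the array, an intensity of 108, which 12220 genes did. Intensities of different probe sets depend on their probes, so they were not ordered as transcript levels. As a measure of probe error, probe sets of a gene scattered around their gene's mean difference with an SD of 0.09 over 5786 genes. Only probe sets past the filter entered this SD. The SD covers no variation between cultures, and it is too small if probe sets share probes.

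The targeted gene was lower by a small amount. SUN2 differed by -0.28 on its brightest probe set, from 498 to 407, and 6 of its 6 probe sets were lower. The next ones went from 510 to 393 (-0.36) and from 404 to 304 (-0.39), and the rest, all dimmer, differed by -0.10 to -0.05. The markers of epithelial cells EPCAM and KRT8 read 1342 and 1041 on the control array, while VIL1 and CEACAM5 lay below the filter. Of 6 epithelial markers past the filter 6 were higher in the knockdown, by 0.04 to 0.34, where 49.8% of all genes were higher and the median difference was 0.10 in the brightest of 10 intensity bins. Of the markers of other cell types, 3 of 8 for fibroblasts, 2 of 8 for immune cells and 4 of 6 for endothelium passed the filter. All 9 were lower, by -0.13 to -0.03, where 50.2% of all genes were lower. They read 114 to 254 on the control array, in the dimmest 6 of the 10 intensity bins, whose medians ran from -0.04 to -0.009. Background controls of similar level, with 17 to 20 G or C bases, were lower too, by -0.09 to -0.06. The summed intensity of these markers went from 620 in the control to 581 in the knockdown for fibroblasts. It went from 286 to 267 for immune cells and from 746 to 703 for endothelium. The defining immune marker PTPRC read 53.7 and the fibroblast gene DCN 69.5 on the control array, both below the filter, and none read 0 because background was left in. The part of these shifts in the values below was not tested.

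Across the receptors and ligands, epiregulin had the largest difference and was higher in the knockdown culture, ERBB2 was modestly lower, and most other probe sets differed by less than the probe error. Of the 34 probe sets 23 lay within 1 SD of 0, and 0 reached 1.5-fold. Below the filter lay 20 of the 34, where differences are understated and no probe set entered that SD. Of the 9 genes, 7 passed the filter on low values (3 receptors and 4 ligands), and 0 of these 7 were 1.5-fold higher or lower, where 0.336% of all genes were 1.5-fold higher and 0.0245% were 1.5-fold lower. The 4 ligand genes past the filter had a median difference of 0.16 and the 3 receptor genes one of -0.06, beside -0.0009 over all 12220 genes. These medians rest on very few genes. Of all 19 receptor probe sets, dim ones included, 14 were lower in the knockdown, where 57.6% of all probe sets were lower. Of the 15 ligand probe sets 9 were higher, where 42.4% of all were higher. In whole cultures, fewer cells with a transcript and less of it per cell cannot be told apart.

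**Figure D1:**
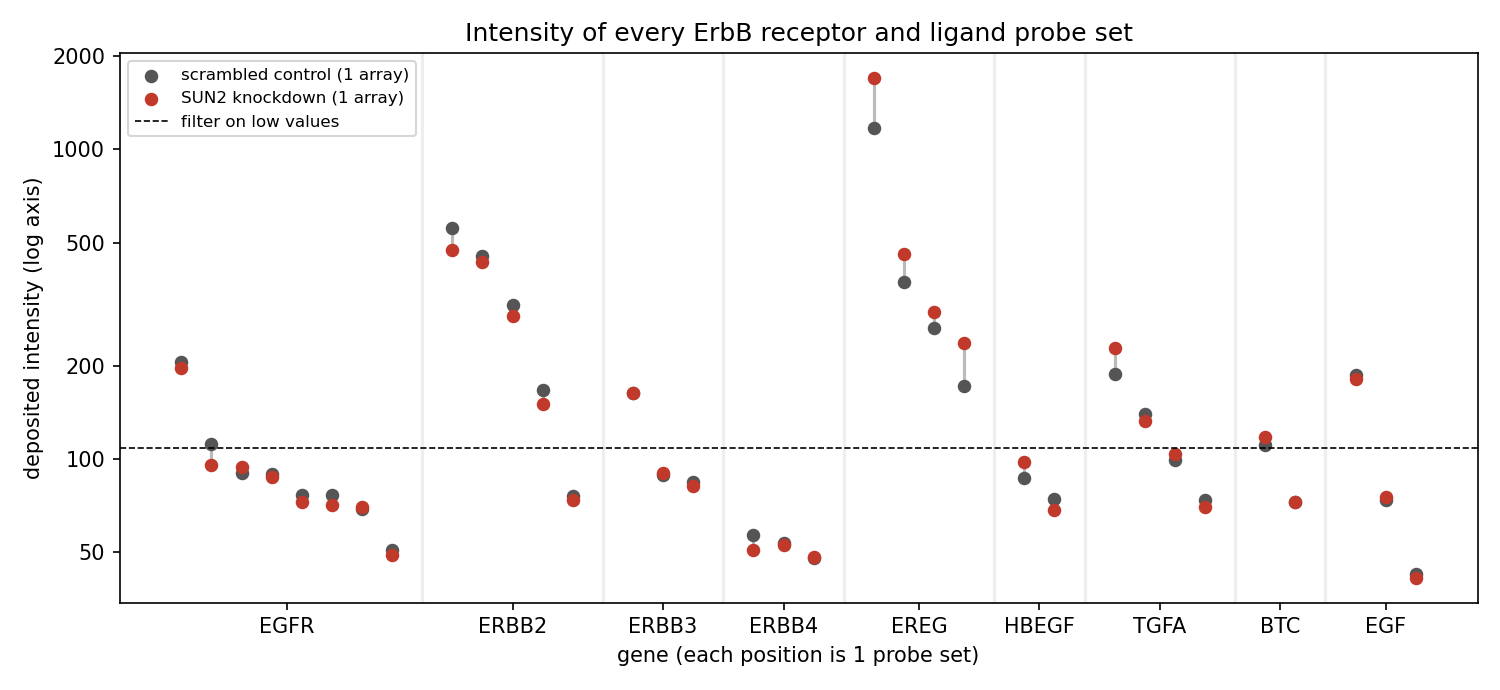
Deposited intensity (log axis) of each of the 34 probe sets on the control array (grey) and the knockdown array (red), 1 array each, by gene. The dashed line is the filter at 108. The 4 EREG probe sets are all higher in the knockdown and the 5 ERBB2 probe sets all lower, while the points of most other probe sets nearly coincide.

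EGFR, the receptor of EGF and TGF-alpha, showed no difference beyond probe error on its brightest probe set. This probe set (11725103_s_at) read 206 in the control and 197 in the knockdown, a difference of -0.06. It was the only 1 of 8 EGFR probe sets past the filter, and it belongs to the _s_at class, whose probes can match more than 1 transcript or gene. The other 7 read from 50.7 to 111 on the control array. All 8 lay below the background control with 19 G or C bases, which read 236 and 222. Without the _s_at and _x_at classes the brightest was 11733760_a_at, at -0.19. Over all 8, the differences ran from -0.19 to 0.06, with 6 lower and 2 higher.

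The widest EGFR difference came from a probe set listed with a transcript of a short isoform. Of the 8 probe sets, 3 are listed with RefSeq transcripts that encode truncated receptors without the kinase domain. They read 111 and 95.6 (11733760_a_at, -0.19), 76.6 and 72.6 (11742247_a_at, -0.06) and 69.1 and 69.7 (11738815_at, 0.01) in control and knockdown. Their intensities lay below the background control with 17 G or C bases, which read 154 and 146. The first and second belong to the _a_at class, whose probes match several transcripts of the gene, so neither measures a short isoform alone.

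ERBB2, the partner receptor known as HER2, was lower in the knockdown on each of its probe sets. Its brightest probe set (11755005_a_at) read 559 in the control and 472 in the knockdown, which is 84.5% of control and a difference of -0.24. The next ones went from 454 to 434 (11762165_x_at, -0.06), from 315 to 290.5 (11736472_a_at, -0.11) and from 167 to 151 (11751416_a_at, -0.13). The fifth, below the filter, read 76.1 and 73.6 (-0.04). The direction was shared but the size was not, and the mean was -0.12 with an SD of 0.08 (5 probe sets, not replicates). The 11762165_x_at and 11751416_a_at probe sets are listed with 1 accession and may share probes, which was not checked.

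The ERBB2 difference was 2.50 times the probe error, and 1.30% of all genes were lower still. In its intensity bin, 1 of 10 equal bins of genes, the 10th percentile was -0.11 and the median 0.09. Of genes with at least 4 probe sets past the filter, 20.4% had all of them lower, as ERBB2 did. The background controls on either side of its level were lower too: those with 21 and 22 G or C bases went from 367 to 342 (-0.10) and from 595 to 546 (-0.12). The part of background in the ERBB2 difference was not tested.

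ERBB3 and ERBB4 gave little to compare. ERBB3, the neuregulin receptor that partners ERBB2, read 163.20 in the control and 163.22 in the knockdown on its brightest probe set (11721445_x_at, 0.0002), and its other 2 probe sets, both below the filter, differed by 0.02 and -0.04. The background control with 18 G or C bases read above the brightest ERBB3 probe set on both arrays, at 182 and 173. All 3 ERBB4 probe sets lay below the filter. They read 56.7 and 50.9 (-0.12), 53.6 and 52.6 (-0.02), and 47.8 and 48.0 (0.0047) in control and knockdown. ERBB4, a second receptor of epiregulin and betacellulin, was therefore not distinguishable from background at this signal, which does not show that it is absent.

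**Figure D2:**
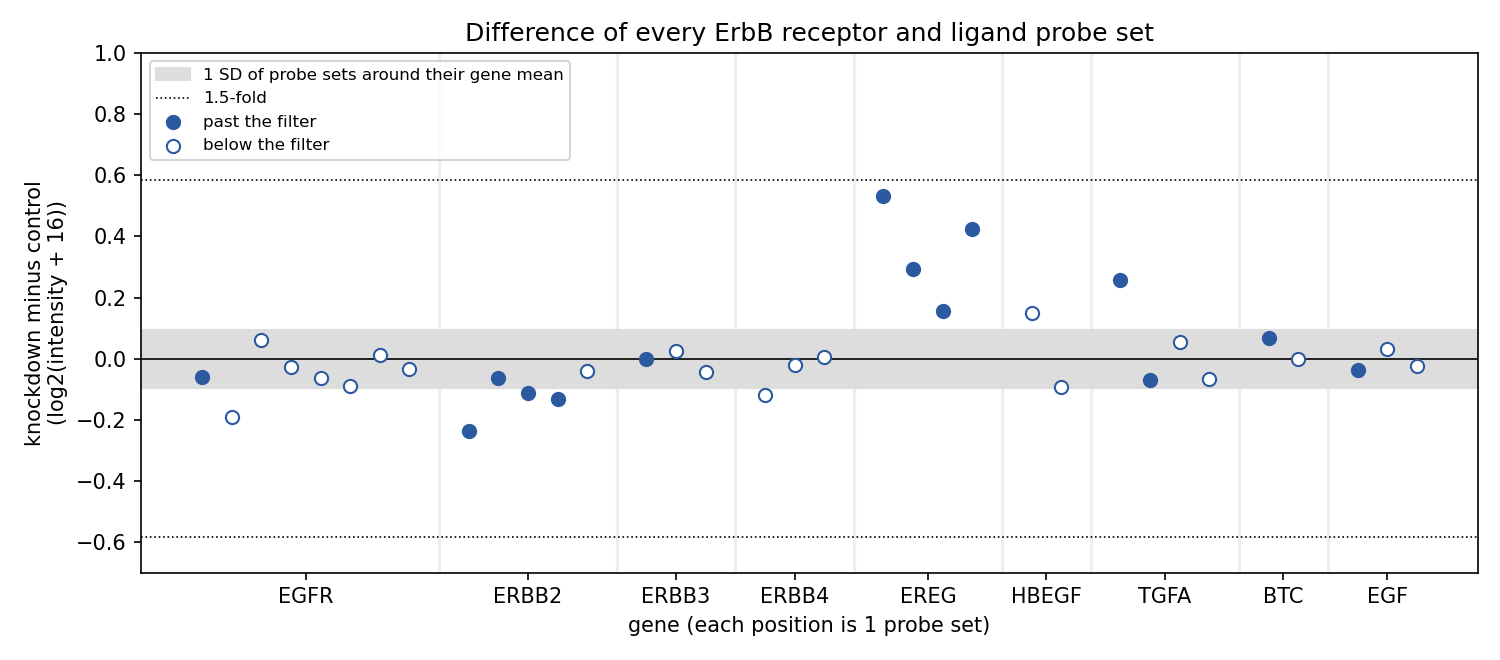
Difference of each probe set (knockdown minus control, log2(intensity + 16)) by gene, filled where the probe set passed the filter and open where it did not. The grey band is 1 SD of probe error (0.09), taken from probe sets past the filter only, and the dotted lines mark 1.5-fold. The EREG points run from 0.16 to 0.53 and the ERBB2 points from -0.24 to -0.04.

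EREG encodes epiregulin, a ligand of EGFR and ERBB4, and had the largest difference of the 9 genes. Its brightest probe set (11732719_at) read 1173 in the control and 1702 in the knockdown, 1.44-fold higher on the log2(intensity + 16) scale (0.53). The others went from 372 to 459 (11732718_at, 0.29), from 266 to 298 (11763822_at, 0.16) and from 172 to 237 (11732720_a_at, 0.43). All 4 passed the filter and all 4 were higher in the knockdown. They are listed with 4 different accessions, and none belongs to the _s_at or _x_at classes.

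The EREG probe sets agreed in direction but not in size. Their mean difference was 0.35 with an SD of 0.16 (4 probe sets, not replicates), and the sizes did not follow the order of intensity, since the dimmest had the second-largest difference. Of genes with at least 4 probe sets past the filter, 28.5% had all of them higher. The brightest EREG probe set differed by 5.62 times the probe error, and 0.442% of all genes were higher still, which put EREG at place 55 of 12220. In the brightest of the 10 intensity bins, which holds EREG, the 90th percentile was 0.28 and the median 0.10. The background control nearest in level, with 25 G or C bases, differed in the opposite direction (-0.33). Both quantile normalization and a loess correction for intensity put EREG at 0.42.

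TGFA, which encodes the EGFR ligand TGF-alpha, was higher on its brightest probe set, and its other probe sets lay within 1 SD of 0. That probe set (11728302_at) read 188 in the control and 228 in the knockdown, a difference of 0.26 and 2.73 times the probe error. The second one past the filter (11745159_a_at) went the other way, from 140 to 133 (-0.07). The 2 dim ones read 99.1 and 104 (11728303_at, 0.05) and 73.9 and 69.8 (11745160_s_at, -0.07). With 2 probe sets higher and 2 lower, the mean of all 4 was 0.04, so the difference beyond probe error rests on 1 probe set. The 2 lower probe sets are listed with 1 accession. Among all genes 6.33% were higher than TGFA, and the 90th percentile of its intensity bin was 0.18. On the control array the brightest TGFA probe set lay below the background control with 19 G or C bases (188 against 236). On the knockdown array the order was reversed (228 against 222). The part of background in the TGFA difference was not tested.

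HBEGF, BTC and EGF showed no difference that their probe sets shared. HBEGF, a heparin-binding ligand of EGFR and ERBB4, lay below the filter on both probe sets, which read 86.9 and 98.0 (11719898_s_at, 0.15) and 74.0 and 68.4 (11755981_a_at, -0.09) in control and knockdown. BTC, betacellulin, read 111 and 117 (11740532_s_at, 0.07), just above the filter, and 72.41 and 72.40 (11762566_at, -0.0003). EGF read 187 and 182 (11756749_a_at, -0.04), 73.6 and 75.5 (11727113_at, 0.03) and 42.3 and 41.3 (11751935_a_at, -0.02). All these values lay below the background control with 19 G or C bases, which read 236 and 222.

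**Figure D3:**
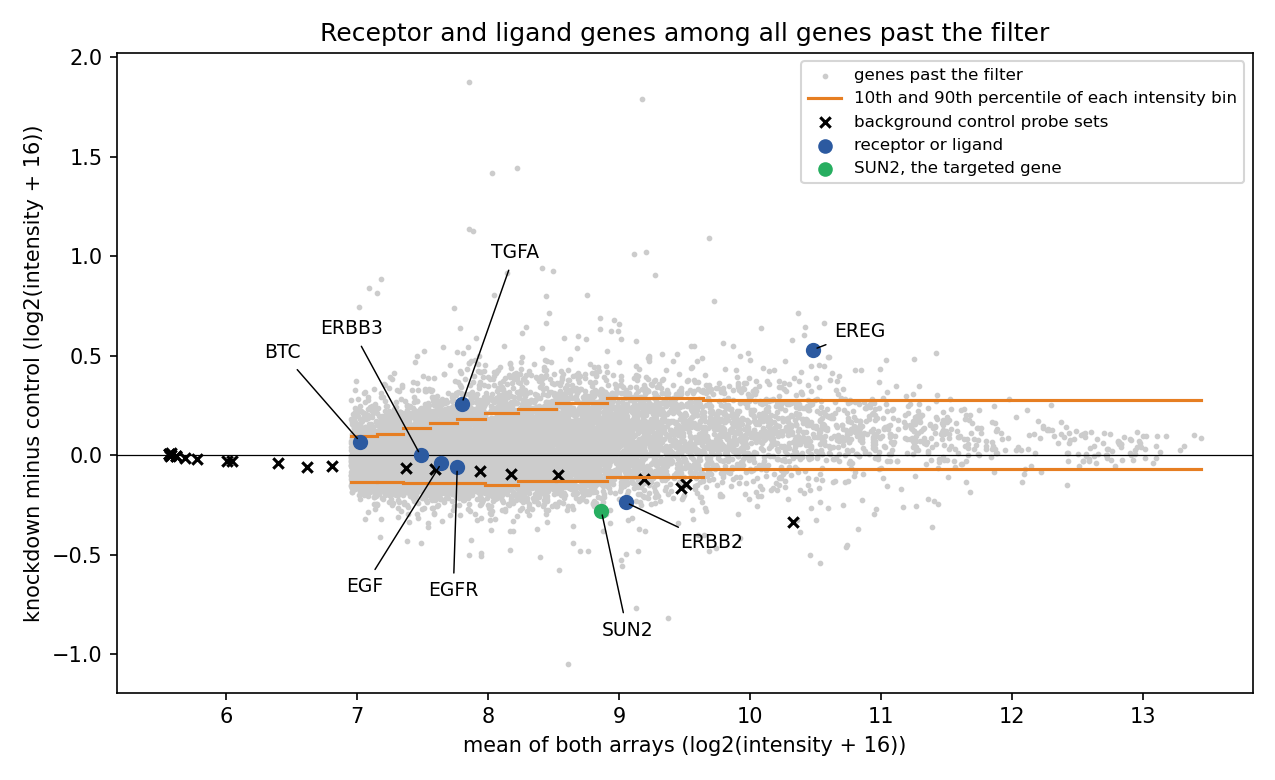
Difference of each gene past the filter (y, knockdown minus control) against the mean of both arrays (x), both as log2(intensity + 16), with the receptors and ligands past the filter in blue and SUN2 in green. Orange lines are the 10th and 90th percentiles in 10 equal intensity bins, and crosses are the 23 background controls. EREG and TGFA lie above the 90th percentile of their bin and ERBB2 lies below the 10th.

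EREG is part of a group of ligand genes on chromosome 4, where EPGN precedes it and AREG and BTC follow it among protein-coding genes in RefSeq order. This neighbourhood was examined after the EREG values were seen. EPGN, which encodes the EGFR ligand epigen, read 94.5 in the control and 93.3 in the knockdown on its brightest probe set (-0.02), below the filter, and BTC differed by 0.07. On the far side of EPGN, MTHFD2L differed by 0.02. Beyond BTC, PARM1, RCHY1 and THAP6 differed by 0.11, 0.23 and 0.10. PPBP, CXCL5, CXCL3, CXCL2 and ODAPH, further out, lay below the filter like EPGN. Every gene analysed among the 6 on either side was closer to 0 than EREG. That would hold for most genes, since EREG was looked at for its large difference and 0.442% of all genes were higher still.

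Other genes of the pathway were taken from 5 lists of 59 genes in all, of which 42 passed the filter. Of these 24 were higher and 18 lower in the knockdown, where 49.8% of all genes were higher and 50.2% lower, and 0 of 42 reached 1.5-fold. Their median difference was 0.01. Among the other ErbB ligands, NRG1, a neuregulin that binds ERBB3 and ERBB4, was the only 1 of 5 past the filter. It read 176 and 159 (-0.13), and its 3 probe sets past the filter were all lower.

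Of 5 genes for ligand release 4 passed the filter, 2 higher and 2 lower, where 49.8% of all genes were higher. ADAM17, the main sheddase of TGF-alpha and amphiregulin, read 333 and 379 (0.18) and differed by -0.06 on its second probe set past the filter. RHBDF2, an iRhom that brings ADAM17 to the cell surface, read 304.5 and 348 (0.19), with -0.03 on its second. RHBDF1, the other iRhom, differed by -0.03 and by -0.21 on its second probe set past the filter. RHBDL2, a rhomboid protease, differed by -0.04, with 0.03 on its second. None of these genes except RHBDF1 had its probe sets past the filter in 1 direction. ADAM10, the remaining gene of the list, lay below the filter and read 86.9 and 103 (0.21). It falls outside the naming rule and was added after its values were seen.

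Adaptors and signal transducers were mostly a little higher, 11 of 15 past the filter, with a median of 0.02, beside 49.8% of all genes higher. That median turned to -0.019 with quantile normalization and to -0.0017 with loess. A further 6 of the 23 listed were not analysed here. MAP2K1, the kinase MEK1, read 738 and 888 (0.26), with its 3 probe sets from -0.10 to 0.26. STAT3, a transcription factor activated by receptor kinases, read 316 and 372 (0.22), with 2 of 3 probe sets higher. PTPN11, the phosphatase SHP2 that relays receptor signals to RAS, read 248 and 292 (0.22), with 1 of 4 probe sets past the filter. ARAF, a RAF kinase, was lower at 655 and 567 (-0.20), with all 3 of its 5 probe sets that passed the filter lower.

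Receptor down-regulation and feedback inhibitor genes were split, 5 higher and 5 lower of 10, with a median of 0.009. PTPN1, a phosphatase that acts on EGFR, read 468 and 585 (0.31) but -0.08 on its second probe set. SH3KBP1, an adaptor of CBL in receptor uptake, read 184 and 217 (0.22), with both probe sets past the filter higher. SPRY4 and SPRED2, inhibitors of RAS-ERK signalling, differed by -0.27 and -0.15. Each value rests on the only 1 of 3 probe sets of the gene past the filter. ERRFI1 (MIG6), an inhibitor of the EGFR kinase, read 1926 and 2006 (0.06). It falls outside the naming rule and was added after its values were seen.

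Genes whose transcription follows ERK activity were split as well, 6 higher and 6 lower of 12, with a median of -0.04, but their differences were among the wider ones. The growth regulator MYC read 642 in the control and 898 in the knockdown (0.48) on its 1 probe set. EGR1, an early transcription factor, read 654 and 465 (-0.48), with 3 of 3 probe sets past the filter lower. IER3, an early response gene, read 1982 and 1447 (-0.45) on 1 probe set, and DUSP6, the ERK phosphatase, read 1453 and 1159 (-0.32), with 4 of 4 lower. Members of this list thus went in opposite directions by similar amounts.

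**Figure D4:**
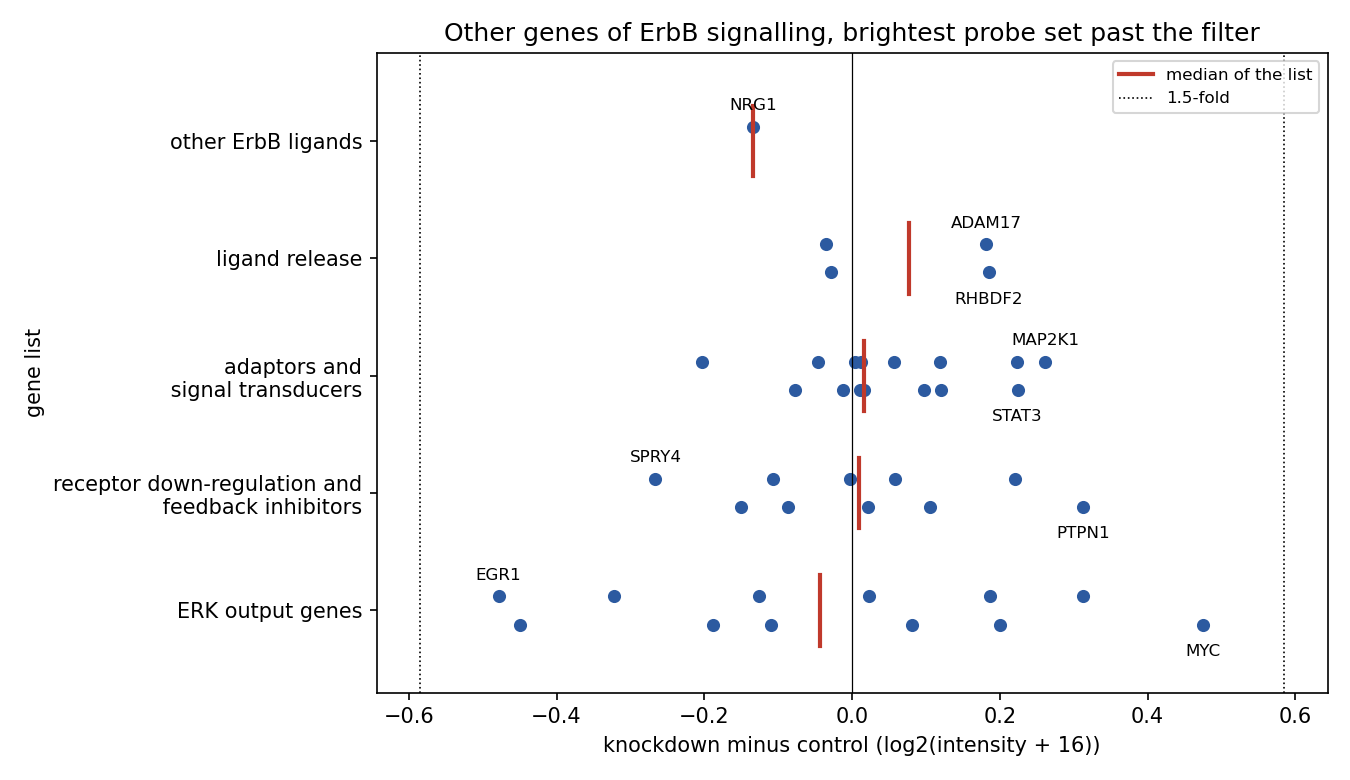
Difference (knockdown minus control, log2(intensity + 16)) of each gene past the filter in 5 lists of ErbB signalling, 1 point per gene on its brightest probe set. Red bars are list medians, from -0.13 for the single other ligand to 0.08 for ligand release, dotted lines mark 1.5-fold, and no point passes them.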

How the data were processed

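Gene expression was measured in 2 HCT116 cultures, 1 array each, grouped by the treatment label. The deposited values are probe set intensities on a linear scale. MAS5 and RMA appear in the submitters' processing notes without a stated role. Nothing on scaling between arrays was given in the sources used here. Medians were 108.8 (control) and 107.1 (knockdown), and the centring and scaling behind them are unknown. No detection call was used.

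Of 49395 probe sets, 102 controls were set apart. Of the rest, 44988 had 1 gene symbol, 1832 several and 2473 none in the platform annotation; only the first were named, with symbols updated through the Entrez ID in RefSeq (GRCh38.p14) for 44961. Members were taken by symbol. Values were analysed in Python 3.11.15 and limma 3.58.1 (quantile, loess and normexp) as log2(intensity + 16), the brightest probe set standing for a gene, with a filter at the median. The gene steps were tested on simulated data. With 1 array per group there is no test, and the number of arrays limits the precision. The alternatives were median centring, quantile normalization, loess, normexp, a pseudocount of 1 or 64, averaging a gene's probe sets, leaving out _x_at and _s_at probe sets, no filter, and a filter at the 75th percentile. Named genes were all members, SUN2, and the 4 genes past the filter with the largest difference in each list, plus any past 1.5-fold. Members and lists were chosen with earlier results of these data known.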

Additional observations from a re-analysis of the deposited data

How the results depend on the processing

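No paired analysis was possible because a group is a single array, so leaving one out is not possible either. No receptor or ligand gene passed 1.5-fold in either direction under any of the 10 alternatives. EREG stayed higher (0.35 to 0.55), TGFA higher (0.04 to 0.31) and ERBB2 lower (-0.33 to -0.12) under the 8 that apply to single genes, each closest to 0 with the mean of all probe sets. HBEGF turned from 0.15 to -0.094 without _x_at and _s_at probe sets, which leaves its other probe set. EGFR went from -0.06 to -0.19 under the same setting, and ERBB4 from -0.12 to -0.22 with normexp. The median of the adaptors and signal transducers turned from 0.016 to -0.019 after quantile normalization and to -0.0017 after loess. That of the feedback inhibitors, 0.009, turned to -0.021 and -0.012 under the same settings. It was -0.012 with the mean of all probe sets and -0.0025 without _x_at and _s_at probe sets. The ligand release median turned from 0.08 to -0.013 with the mean of all probe sets. For the ERK output genes it turned from -0.04 to 0.023 without _x_at and _s_at probe sets. The ligand median of 0.16 was 0.039 with the mean of all probe sets, 0.26 (3 genes) without _x_at and _s_at probe sets and 0.39 (2 genes) with the 75th percentile filter. The receptor median was -0.24 (1 gene, ERBB2) under the latter 2 settings. The median for ligand release was 0.18 without the filter and 0.18 with the 75th percentile filter, and that of the other ErbB ligands was -0.025 without the filter. Of all genes, those 1.5-fold lower numbered 10 after quantile normalization, 8 after loess and 7 with normexp against 3, and those 1.5-fold higher 22 with the mean of all probe sets against 41. Genes 2-fold higher numbered 16 with normexp, 5 with a pseudocount of 64, 4 with the mean of all probe sets and 5 without _x_at and _s_at probe sets against 9. Genes 2-fold lower numbered 0 with a pseudocount of 64 and 0 with averaged probe sets against 1. The cause of these shifts was not tested. Dim probe sets (20 of the 34 lay below the filter) limit what can be said of ERBB4 and HBEGF. The brightest probe sets of EGFR, TGFA, EGF, ERBB3 and BTC passed the filter at 111 to 206 on the control array. Markers of fibroblasts, immune cells and endothelium passed it at 114 to 254, so passing the filter does not show that a gene is expressed.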
